A study of Mus musculus with 56 samples.

Results

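Germline and meiosis genes are 39 mouse genes that build sperm and eggs, taken by name and sorted by role into 14 meiosis genes, 14 piRNA genes and 11 germ cell identity genes. Their H2A.Z peaks were the peaks that the authors' lists of changed peaks give to these genes by name, and the peaks of the whole set that lie in or within 1 kb of these genes and are in neither list. This gave 83 of the 61420 H2A.Z peaks of the series. H2A.Z is a histone variant that sits around active and poised promoters. It was mapped by CUT&Tag: a transposase carried to the antibody inserts sequencing adapters into the DNA nearby. The cells were RHKI, a line made from E14Tg2a mouse embryonic stem cells, with an HA-tagged Rnaseh1 knock-in, and both groups carried it. In the Dox group, 500 ng/ml doxycycline was given for 48 hours, and 4 H2A.Z libraries were made from these cells, against 4 libraries of the control group. Both groups grew in naive-state medium (2i/LIF), here LIF and 2% FBS plus CHIR-99021, a GSK3 inhibitor, at 3 µM and PD0325901, a MEK inhibitor, at 1 µM. Whether RHKI is a single clone, and whether the libraries came from separate cultures, is not stated in the sources used here. The design text describes the cells as Rnaseh1-inducible, and RNase H1 digests RNA held in an R-loop, so the comparison asks how R-loops bear on H2A.Z. Peak positions do not show whether RNase H1 was induced, and an effect of doxycycline on its own cannot be told apart.

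Most germline genes are silent in body cells, and many, but not all, are also held silent in embryonic stem cells. Many have CpG-rich promoters held silent by DNA methylation and by a Polycomb complex that contains E2F6 and the pair MGA and MAX, and they are switched on when primordial germ cells lose that methylation. Meiosis genes pair, join and recombine homologous chromosomes. piRNA genes make and use small RNAs that guide PIWI proteins against transposons, and germ cell identity genes set the fate of germ cells as transcription regulators and RNA-binding proteins or serve sperm development.

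A peak is called lower or higher here only because the authors' deposited lists hold it. Lower is read as Dox against control from the names of the lists, whose headers do not state the contrast. A peak in neither list is called unchanged, which does not show that its H2A.Z was equal in both groups. Only positions and annotation could be used. Depth, the spread between replicates and the size of each change are therefore unknown here, and no test was made. Counts are set beside the same counts over all genes, and the intervals given are 95% exact Clopper-Pearson intervals, which cover counting only. RNA was not measured in these files, so neither the activity of these genes nor the identity of the cells could be checked.

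H2A.Z was lower at the transcription start site (TSS) of 16 of the 39 genes and unchanged at the TSS of 16. The other 7 had no peak centred within 1 kb of the TSS. Among the 16 were the synaptonemal complex genes Sycp1, Sycp3 and Syce2, the recombinase gene Dmc1, the meiotic entry gene Stra8, the PIWI gene Piwil2, the VASA helicase gene Ddx4, and the spermatogonial transcription factor genes Sohlh2 and Dmrt1. The 16 made up 41.0% of the members (25.6 to 57.9%), and over all protein-coding genes the share was 14.8% (3239 of 21896). At any distance, by the authors' gene name, 23 of the 39 had a lower peak (59.0%, 42.1 to 74.4%), beside 26.8% of all protein-coding genes, and for 7 of the 23 these peaks all lay more than 1 kb from the TSS. By overlap, 36 members had a peak and 23 of the 36 a lower one (63.9%, 46.2 to 79.2%), beside 37.6% of all protein-coding genes with a peak. These are not the same 23 genes as by name, since 4 members had a lower peak only by overlap. No member had a higher peak (0 of 39, an interval of 0 to 9.03%), and 0.927% of all protein-coding genes had one. Of the whole peak set, 0.518% was higher. The members were chosen with results of these data known, so these shares describe the 39 genes.

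**Figure D1:**
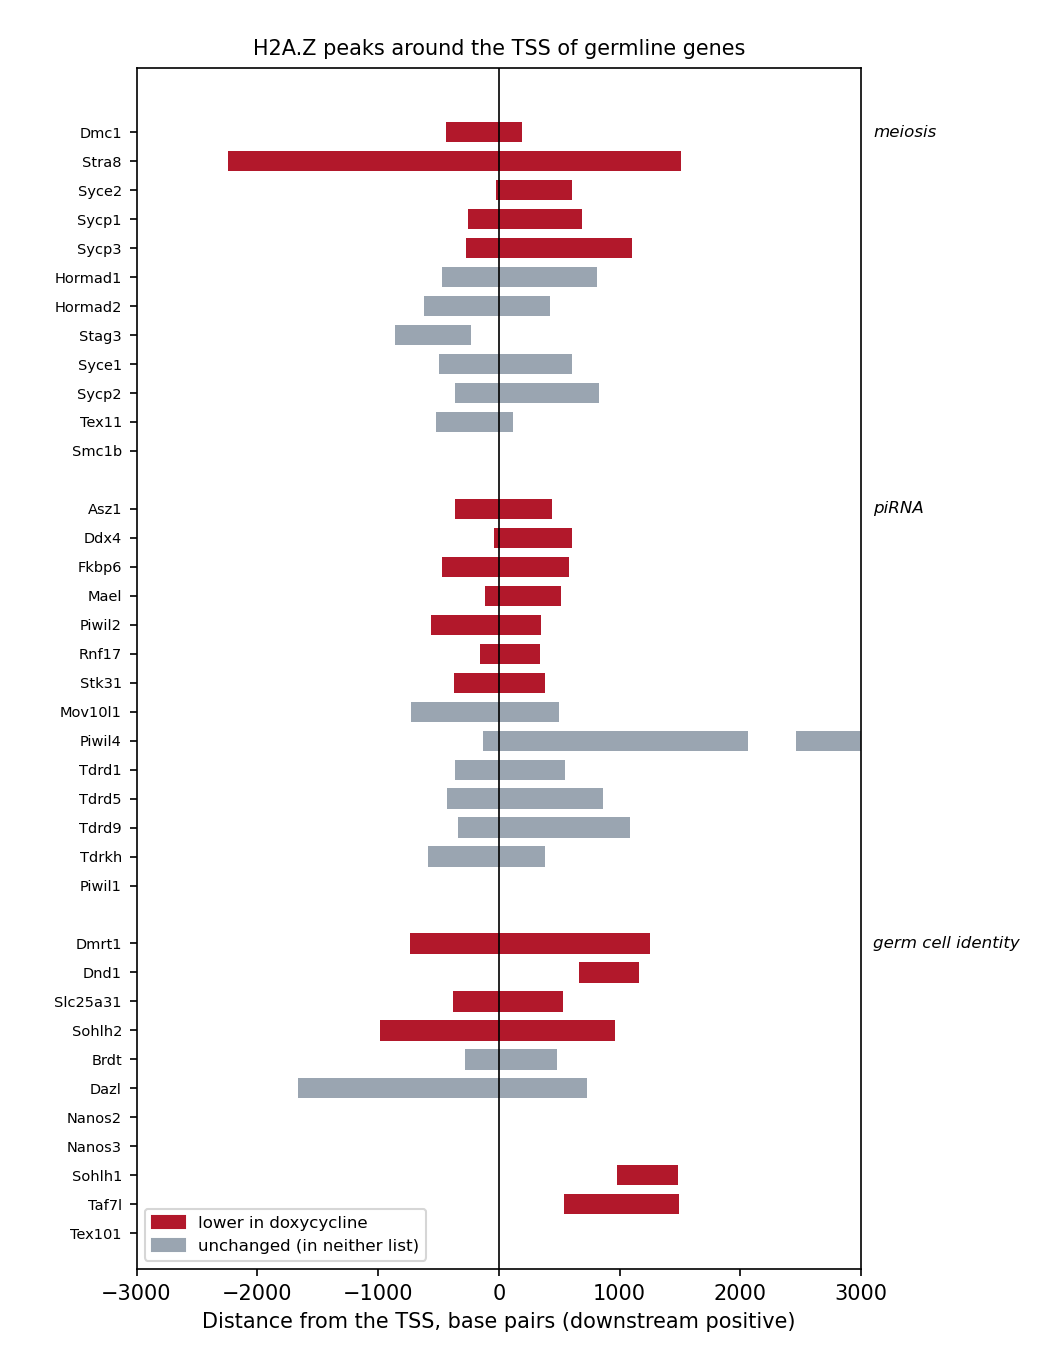
H2A.Z peaks within 3 kb of the TSS of 37 members, drawn to scale, with distance from the TSS in base pairs on the x axis and 1 gene per row. Red bars are peaks lower in doxycycline and grey bars unchanged peaks. Tex15 and Spo11, whose TSS is not in the tables used, are left out. The red bars at Dnd1, Sohlh1 and Taf7l lie wholly downstream of the TSS, and Smc1b, Piwil1, Nanos2, Nanos3 and Tex101 have no bar.

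Meiosis genes had a lower TSS peak in 5 of 14 cases (35.7%, 12.8 to 64.9%), an unchanged one in 8 and none in 1. piRNA genes had a lower one in 7 of 14 (an interval of 23.0 to 77.0%), an unchanged one in 6 and none in 1. Germ cell identity genes had a lower one in 4 of 11 (36.4%, 10.9 to 69.2%), an unchanged one in 2 and none in 5. The intervals of the 3 groups are wide and overlap, and a difference between the groups was not tested. Germ cell identity genes most often had no TSS peak in these counts. Where there was a TSS peak, it was lower in 5 of 13 meiosis, 7 of 13 piRNA and 4 of 6 germ cell identity genes.

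Members also had a TSS peak more often than all genes did. Of the 32 members whose TSS is in the RefSeq promoter table, 25 had a peak centred within 1 kb (78.1%), against 50.5% of the 17491 protein-coding genes there. Of those 25, 12 had a lower one (48.0%), and of the 8825 protein-coding genes with such a peak, 31.5% did. Counted over peaks, 27 of the 83 member peaks were lower (32.5%, 22.6 to 43.7%), beside 14.8% of the whole peak set and 22.6% of peaks in or near protein-coding genes.

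The promoters of members with lower and with unchanged TSS peaks are given here as the 250 bases before the TSS in RefSeq's table for GRCm38.p6. They are, among members with an entry there, the 2 with the widest lower TSS peak in each group and the 2 with the widest unchanged TSS peak of all, so that the letters can be set beside the H2A.Z call. Capitals mark CACGTG, the E-box bound by MGA and MAX, and GCGGGA or its complement TCCCGC, the core letters bound by E2F6. In the order given, the first 6 had a lower peak and the last 2, Dazl and Piwil4, an unchanged one. Coordinates are on GRCm38.
Stra8, chr6:34920698-34920947, plus strand: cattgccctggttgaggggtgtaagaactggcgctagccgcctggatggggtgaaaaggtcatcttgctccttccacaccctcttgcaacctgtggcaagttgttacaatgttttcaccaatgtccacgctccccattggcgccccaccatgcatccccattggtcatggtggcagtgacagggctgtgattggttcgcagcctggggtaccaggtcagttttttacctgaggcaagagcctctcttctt
Sycp3, chr10:88459337-88459586, plus strand: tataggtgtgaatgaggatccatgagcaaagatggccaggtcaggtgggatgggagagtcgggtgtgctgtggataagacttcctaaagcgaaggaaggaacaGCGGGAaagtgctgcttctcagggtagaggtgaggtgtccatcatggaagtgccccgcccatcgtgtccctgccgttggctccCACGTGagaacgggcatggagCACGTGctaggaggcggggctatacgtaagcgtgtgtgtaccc
Fkbp6, chr5:135349914-135350163, minus strand: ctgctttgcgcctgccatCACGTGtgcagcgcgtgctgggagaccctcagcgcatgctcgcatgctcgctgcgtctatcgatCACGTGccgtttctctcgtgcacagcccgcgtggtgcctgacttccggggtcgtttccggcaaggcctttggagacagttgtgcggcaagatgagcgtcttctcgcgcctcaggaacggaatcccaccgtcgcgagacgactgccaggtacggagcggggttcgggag
Asz1, chr6:18109062-18109311, minus strand: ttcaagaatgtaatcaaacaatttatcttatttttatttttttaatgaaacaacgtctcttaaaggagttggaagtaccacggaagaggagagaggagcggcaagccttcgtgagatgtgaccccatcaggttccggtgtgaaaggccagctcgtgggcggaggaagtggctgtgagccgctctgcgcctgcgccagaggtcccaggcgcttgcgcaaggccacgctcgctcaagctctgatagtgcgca
Sohlh2, chr3:55181794-55182043, plus strand: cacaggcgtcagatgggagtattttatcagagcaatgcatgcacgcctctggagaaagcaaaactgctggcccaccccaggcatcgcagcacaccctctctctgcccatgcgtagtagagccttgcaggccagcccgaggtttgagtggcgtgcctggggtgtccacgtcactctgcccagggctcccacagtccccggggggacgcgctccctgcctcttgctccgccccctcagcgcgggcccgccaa
Slc25a31, chr3:40708621-40708870, plus strand: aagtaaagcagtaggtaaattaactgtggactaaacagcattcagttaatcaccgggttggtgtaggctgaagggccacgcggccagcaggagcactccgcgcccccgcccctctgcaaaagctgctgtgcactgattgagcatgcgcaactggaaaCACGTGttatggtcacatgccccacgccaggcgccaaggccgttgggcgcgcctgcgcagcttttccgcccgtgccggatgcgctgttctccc
Dazl, chr17:50293621-50293870, minus strand: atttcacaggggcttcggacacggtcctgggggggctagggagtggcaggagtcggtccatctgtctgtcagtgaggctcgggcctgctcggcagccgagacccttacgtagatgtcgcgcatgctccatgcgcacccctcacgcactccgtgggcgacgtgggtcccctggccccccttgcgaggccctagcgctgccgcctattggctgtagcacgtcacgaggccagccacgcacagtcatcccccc
Piwil4, chr9:14740673-14740922, minus strand: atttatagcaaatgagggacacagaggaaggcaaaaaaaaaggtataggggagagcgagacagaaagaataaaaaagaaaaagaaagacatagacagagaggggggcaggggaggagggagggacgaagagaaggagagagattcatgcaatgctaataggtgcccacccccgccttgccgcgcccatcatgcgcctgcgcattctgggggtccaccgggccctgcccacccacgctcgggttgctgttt
Sycp3 carried both motifs and Fkbp6 and Slc25a31 the E-box, while Stra8, Asz1 and Sohlh2 had neither in these 250 bases. Dazl and Piwil4 had neither, but they do not stand for all unchanged promoters: the window of Hormad1, the meiosis gene with the widest unchanged TSS peak, holds both. Promoters with a lower peak therefore included ones with and without these letters. In Slc25a31 the E2F letters lie after the TSS, at bases 21 to 26 counted from the TSS as base 1.

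Over the whole 300-base windows, which reach 50 bases past the TSS, the E-box was common in germline promoters whatever the H2A.Z call. It was found in 17 of the 32 members with a window (53.1%), against 8.91% of 17491 protein-coding genes. It was in 8 of 12 members with a lower TSS peak and in 6 of 13 with an unchanged one. Among all protein-coding genes it was in 334 of 2782 with a lower TSS peak and in 642 of 6043 with another TSS peak (10.6%). The E2F letters were in 7 of 12 members with a lower TSS peak and 3 of 13 with an unchanged one, beside 43.9% and 35.8% over all protein-coding genes and 28.4% of all windows. With the longer letters GGCGGGA or TCCCGCC, the counts were 4 of 12 and 1 of 13, and the share of all 32 members was 15.6%, beside 16.8% of all windows, where it had been 34.4% beside 28.4% with the shorter letters. Both motifs stood together in 6 members with a lower TSS peak, namely Syce2, Sycp1, Sycp3, Ddx4, Mael and Slc25a31, and in 2 with an unchanged one, Hormad1 and Stag3. Over all protein-coding genes they stood together in 6.11% of those with a lower TSS peak, 4.34% of those with another TSS peak and 3.57% of all windows. A match is only a string of letters and does not show that a factor binds. Motifs were searched on both strands, and an E-box match and an E2F match can share at most 1 base.

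**Figure D2:**
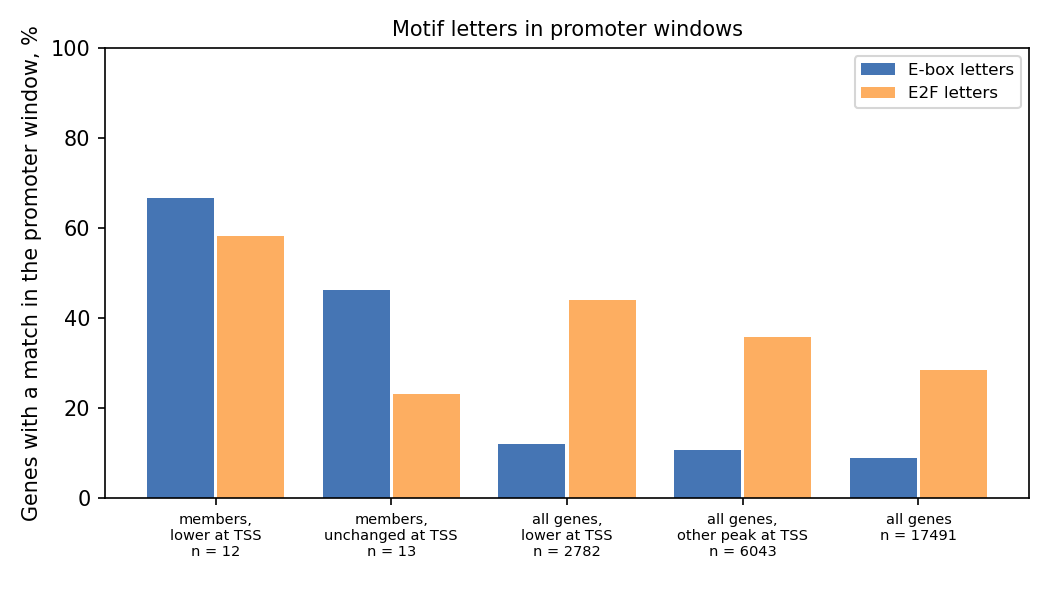
Share of genes (y axis, percent) whose promoter window of 300 bases holds the E-box letters (blue) or the E2F letters (orange). Members with lower and with unchanged TSS peaks stand left of all protein-coding genes with a lower TSS peak, with another TSS peak, and of all kinds. The E-box share is 66.7% and 46.2% in the members and 8.91% over all genes.

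In base composition the members with lower and unchanged TSS peaks overlapped. GC content had a median of 64.8% (54.3 to 72.0%) in the 12 windows with a lower peak, 63.3% (52.7 to 76.0%) in the 13 with an unchanged peak and 57.0% over all genes. The ratio of observed to expected CpG had medians of 0.805, 0.713 and 0.608 in the same order. GC skew, the excess of G over C on the coding strand and a known feature of R-loop-prone promoters, had medians of 0.0374, 0.044 and 0.0125. The windows hold 250 bases before the TSS and 50 after it, so skew inside the genes was hardly covered. Whether these promoters form R-loops was not tested. The highest skew of any member was that of Sohlh1 (0.34), which had no peak centred within 1 kb of the TSS. Sycp3 (0.27) and Syce2 (0.22) came next, Dmc1 (-0.34) was lowest, and these had a lower TSS peak. Among genes with a TSS peak and a CpG ratio of 0.6 or more, 9 of 18 members had a lower peak, against 33.5% of all such protein-coding genes, and below 0.6, 3 of 7 did, against 26.9%.

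Among meiosis genes, the lower TSS peaks covered parts of the synaptonemal complex, the zipper between paired chromosomes. The peak at Sycp3, a protein of the chromosome axis, was 1375 base pairs wide (chromosome 10, 88459316 to 88460690) and centred 416 base pairs inside the gene, in intron 1. The peak at Sycp1, which forms the transverse filaments, was 944 base pairs wide (chromosome 3, 102935409 to 102936352), was centred 220 base pairs inside the gene and was annotated as a CpG island. Syce2, a central element protein, had a peak of 627 base pairs in the 5′ UTR, centred at 293 base pairs (chromosome 8, 84872238 to 84872864). Their partners Sycp2 and Syce1 had unchanged TSS peaks of 1194 and 1105 base pairs, centred at 233 and 58 base pairs. The lower peak given to Sycp2 by name was 666 base pairs wide and lay 79986 base pairs away, in an intron of Phactr3. Genes of the same structure thus differed in their call.

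Stra8, which retinoic acid induces at meiotic entry, had the widest lower peak of all members, 3754 base pairs from 34918704 to 34922457 of chromosome 6, centred 368 base pairs upstream of the TSS. It also had the most lower peaks, 3. The second was 660 base pairs wide in intron 5, 13122 base pairs from the TSS. The third, of 1428 base pairs, lay at 27787 base pairs in an intron of Slc23a4. Between them, unchanged peaks of 2439 and 2037 base pairs were centred 5420 and 17966 base pairs from the TSS.

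Recombination genes were divided. Dmc1, the strand exchange protein of meiosis, had a lower promoter peak of 629 base pairs (chromosome 15, 79604917 to 79605545), centred 122 base pairs upstream. Spo11, which makes the DNA breaks of meiosis, had an unchanged peak of 1027 base pairs at an end of the gene, and Tex15, needed for repair of those breaks, one of 501 base pairs at an end. Tex11, an X-linked crossover gene, had an unchanged TSS peak of 632 base pairs and a lower one of 629 base pairs in intron 7, 41399 base pairs inside. The axis genes Hormad1 and Hormad2 had unchanged TSS peaks of 1285 and 1049 base pairs. The lower peak given to Hormad2 was intergenic, 17091 base pairs upstream of it. The meiotic cohesin gene Stag3 had an unchanged peak of 631 base pairs that was centred 546 base pairs upstream and lay in the neighbouring gene Gpc2, where a lower peak of 886 base pairs, 4732 base pairs upstream of the Stag3 TSS, is given to Gal3st4. Smc1b, another meiotic cohesin gene, had no peak at its TSS.

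Some lower peaks of meiosis genes lay in L1 retrotransposons inside long introns. Sycp1 had one of 1098 base pairs in an L1Md_T element in intron 22, 69866 base pairs from its TSS, and the intron 7 peak of Tex11 was in L1Md_F2. By overlap, further lower peaks lay in L1Md_T in intron 25 of Tex11, L1Md_A in intron 19 of Smc1b and L1Md_F2 in intron 22 of the piRNA gene Mov10l1, although the authors' annotation gives these to the neighbours Dlg3, Fam118a and Panx2. Of the 32 lower peaks found by name or overlap, 5 were in L1Md elements (15.6%). Of the 5, 4 were in meiosis genes, 1 in a piRNA gene and 0 in germ cell identity genes. Of the 27 given by name, 2 were in L1Md elements (7.41%). The share was 10.6% over all 9077 lower peaks of the series, counted like these 2 over every kind of annotation. All 5 lay in introns. Of the 27 given by name, 12 were annotated to introns and 2 of these 12 were in L1Md elements, beside 6.98% of the intron peaks among all lower peaks. The members' share thus lay above or below the 10.6% depending on how peaks were given to genes. Reads shared between copies of these elements could not be examined.

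Among piRNA genes, 7 of the 8 lower peaks given by name lay at the TSS, and these had widths from 501 to 1053 base pairs, with a median of 751. The eighth, given to Piwil1, was wider and distal. Piwil2 (MILI), a PIWI protein of early male germ cells, had a lower promoter peak of 913 base pairs (chromosome 14, 70428759 to 70429671), centred 107 base pairs upstream. That TSS is the one of the authors' annotation. The RefSeq gene record runs from 70372477 to 70436898, so the peak lies inside it. Ddx4, the VASA helicase, had one of 650 base pairs at 285 base pairs (chromosome 13, 112651701 to 112652350), in a CpG island. Mael, a nuage protein, had one of 626 base pairs in exon 1 (chromosome 1, 166238233 to 166238858).

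The other 4 were also at promoters. Asz1, a mitochondrial scaffold of piRNA processing, had a peak of 799 base pairs (chromosome 6, 18108622 to 18109420) and the Tudor domain gene Stk31 one of 751 base pairs (chromosome 6, 49395233 to 49395983). Fkbp6, a co-chaperone of piRNA loading, had one of 1053 base pairs (chromosome 5, 135349334 to 135350386). The Tudor domain gene Rnf17 had one of 501 base pairs, the minimum width of the set (chromosome 14, 56402540 to 56403040). Their centres lay 4 to 93 base pairs inside the genes, with Stk31 closest.

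The other Tudor domain genes among the members had unchanged TSS peaks. These were 909 base pairs wide at Tdrd1, 1294 at Tdrd5, 1426 at Tdrd9 and 968 at Tdrkh. Mov10l1, a helicase of piRNA biogenesis, also had an unchanged TSS peak, of 1225 base pairs, as did Piwil4 (MIWI2), the nuclear PIWI protein, with 2194. Tdrd9 had 10 peaks in or near the gene, the most of any member, and 9 were unchanged. The exception was one of 626 base pairs in intron 32, which the authors' annotation gives to Aspg. Tdrd5 had 4 unchanged peaks, the widest of 6386 base pairs. Piwil1 (MIWI), the PIWI protein of meiotic and later male germ cells, had no TSS peak, and its unchanged peaks were centred 3635 and 9684 base pairs inside. The lower peak given to it was 2520 base pairs wide and lay 45733 base pairs away, in an intron of Rimbp2. Of the 3 PIWI genes here, Piwil2 was the one with a lower peak at its TSS, by the authors' distance.

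**Figure D3:**
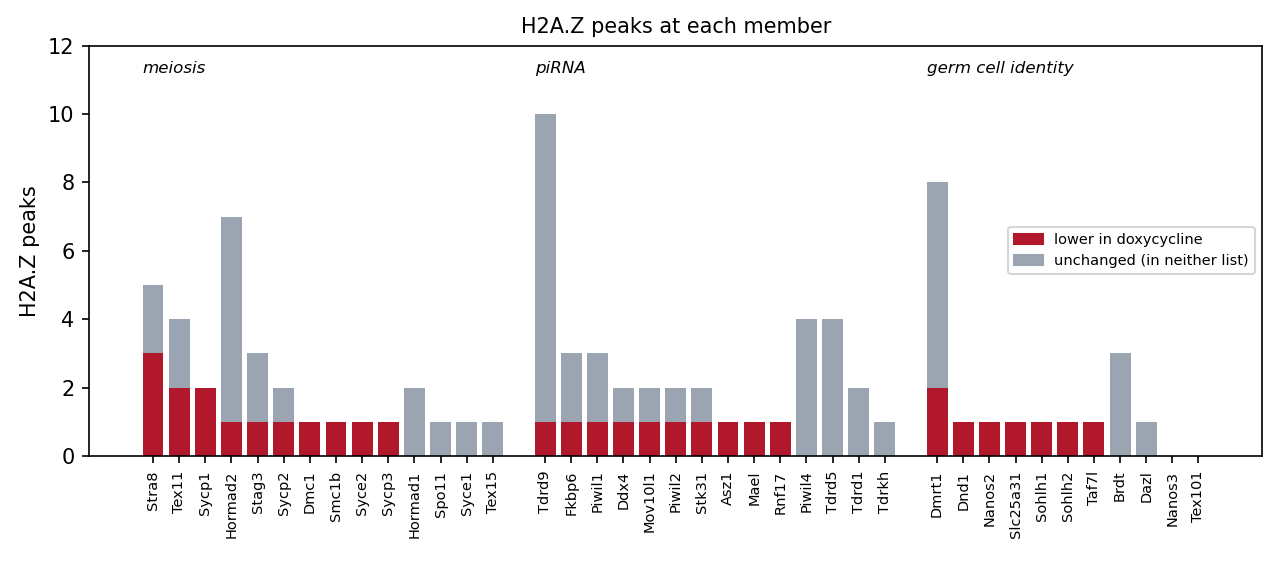
Number of H2A.Z peaks (y axis) at each of the 39 members, by name or by overlap with the gene extended by 1 kb, in red for lower and grey for unchanged. Tdrd9 has 10 peaks, 1 of them lower, and Dmrt1 has 8, 2 of them lower. Nanos3 and Tex101 have 0.

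Among germ cell identity genes, 4 genes of transcription regulators had a lower peak. Dmrt1, a DM domain factor of the testis, had a lower peak of 1983 base pairs over exon 1 (chromosome 19, 25504974 to 25506956) and another of 501 base pairs in intron 2, 9511 base pairs from the TSS. Its other 6 peaks, 628 to 4277 base pairs wide and spread to 99479 base pairs from the TSS, were unchanged. Sohlh2, a bHLH factor of spermatogonia and oocytes, had a lower promoter peak of 1943 base pairs (chromosome 3, 55181062 to 55183004). Its partner Sohlh1 had a lower peak of 501 base pairs in intron 3, at 1233 base pairs, just outside the window of 1 kb. Taf7l, an X-linked relative of the general transcription factor TAF7, had one of 954 base pairs in a CpG island of intron 1, at 1016 base pairs, also just outside. Within the window, the lower peak farthest from a TSS was that of Dnd1, at 912 base pairs.

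RNA-binding and late genes were mixed. Dnd1, an RNA-binding protein that protects primordial germ cells, had a lower peak of 501 base pairs in exon 3 (chromosome 18, 36765052 to 36765552). Slc25a31, the germ cell ADP/ATP carrier, had a lower promoter peak of 916 base pairs (chromosome 3, 40708489 to 40709404). Dazl, an RNA-binding protein that licenses germ cells for meiosis, had an unchanged peak of 2398 base pairs (chromosome 17, 50292888 to 50295285), the widest of the unchanged TSS peaks. Brdt, the testis bromodomain protein, had 3 unchanged peaks, with one of 764 base pairs at its TSS. Nanos2, a regulator of male germ cells, had no peak within 1 kb of the gene, and the lower peak given to it lay 29350 base pairs upstream in an exon of Nova2. Nanos3, which keeps primordial germ cells alive, and Tex101, a surface protein of sperm precursors, had no peak by name or within 1 kb. Nanos2 and Nanos3 also had few CpGs in their promoter windows, 0 and 3, beside a median of 19.5 over the 32 members. The window of Tex101 held 19, near that median.

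Lower TSS peaks of the members ran in width from 501 to 3754 base pairs with a median of 856, and unchanged TSS peaks from 501 to 2398 with a median of 1077. Over the whole peak set lower peaks had a median of 1034 and unchanged peaks one of 967. The lower TSS peaks were centred downstream of the TSS in 12 of 16 genes, and the unchanged ones in 8 of the 14 with a known TSS. Of the 16 genes with a lower TSS peak, 6 had unchanged peaks elsewhere in or near the gene.

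**Figure D4:**
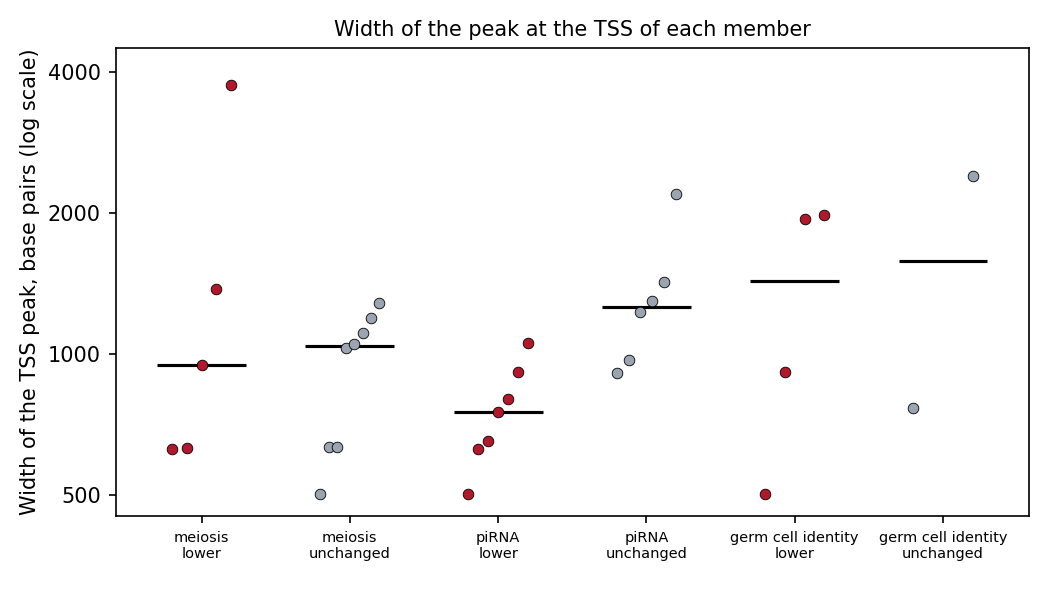
Width in base pairs (y axis, log scale) of the peak at the TSS of each member, 1 point per gene, for lower (red) and unchanged (grey) peaks of each group, with the median as a line. piRNA genes have medians of 751 (lower) and 1259.5 (unchanged), and Stra8 is the highest point at 3754.

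Further germline genes are given by list, with TSS peaks counted as for the members. Of 33 other meiosis genes, 4 had a lower TSS peak (12.1%), near the 14.8% of all protein-coding genes. Meioc, which guards meiotic prophase, had one of 1419 base pairs, the mismatch repair homologue gene Msh5 one of 842 and the central element gene Tex12 one of 753, while Rec114, which aids break formation, had one of 916 base pairs 14998 base pairs away. Of 12 other piRNA genes 4 had a lower TSS peak (33.3%), namely the Tudor domain genes Tdrd6 (1987 base pairs) and Tdrd7 (952), Exd1 (1344) and the mitochondrial Pld6 (1210). Of 21 other germ cell identity genes 7 did (33.3%), and Gfra1 (3551), Cpeb1 (2974), Boll (1960) and Zbtb16 (1827) were the widest. Together these were 15 of 66 genes (22.7%), beside the same 14.8%. By the authors' gene name 19 of the 66 had a lower peak (28.8%), near the 26.8% of all protein-coding genes. By overlap 59 had a peak and 24 of the 59 a lower one, beside 37.6% of all protein-coding genes with a peak. No gene of these lists had a higher peak.

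The genes that encode the repressors of germline promoters had a lower TSS peak in 6 of 22 cases (27.3%), beside 14.8% of all protein-coding genes. By the authors' gene name 9 of the 22 had a lower peak (40.9%), beside 26.8%. By overlap 16 had a peak and 6 of the 16 a lower one, near the 37.6% of all protein-coding genes with a peak. Ring1, a ubiquitin ligase of Polycomb complexes, had one of 2346 base pairs, and the DNA methyltransferase genes Dnmt1 and Dnmt3a had ones of 1697 and 1684 base pairs. The histone deacetylase gene Hdac2 had a lower peak at its TSS and a wider one of 2437 base pairs 57141 base pairs upstream. The Polycomb genes Pcgf6 and Rnf2 also had lower TSS peaks, of 666 and 754 base pairs. The genes E2f6, Mga and Max had no lower TSS peak, and Max had 0 peaks by overlap. The lower peak given to E2f6 by name, of 501 base pairs, lay more than 1 kb from the TSS. The files hold no level of these proteins, and their part in the result was not tested.

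**Figure D5:**
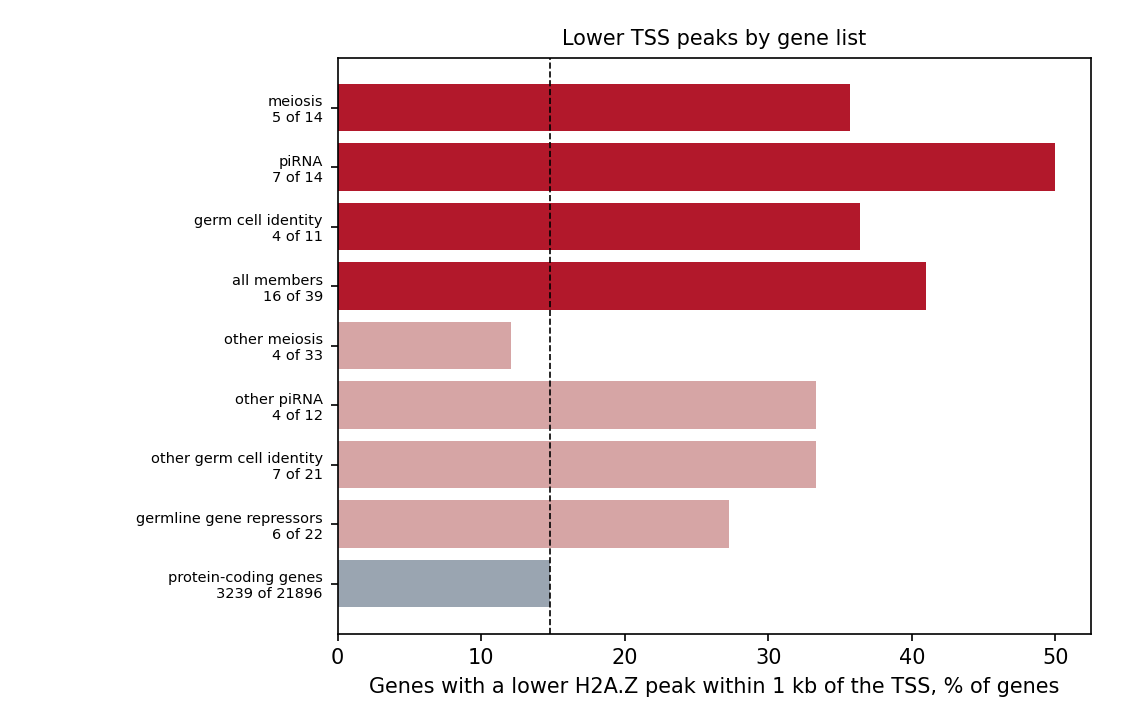
Share of genes (x axis, percent) with a lower H2A.Z peak within 1 kb of the TSS, for the members by group (dark red), for other lists (light red) and for all protein-coding genes (grey, with the dashed line at 14.8%). The members reach 41.0% and the other meiosis genes 12.1%.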

How the data were processed

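The files come from H2A.Z CUT&Tag libraries of the Dox group (4) and the control group (4), and the other 48 of 56 libraries are not analysed here. The submitters' processing notes name Trimmomatic, Bowtie2, Picard, HOMER, deepTools and GRCm38 without roles or versions. HOMER annotatePeaks on mm10 made the annotation of the changed peaks, per the file headers. No source used here gives the peak caller, the pooling of replicates, or the test and threshold behind the lists. The deposited peak score, 0 throughout, was left out. Positions and distances are in base pairs, and starts are counted from 1.

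Lower and higher peaks were given to genes by the authors' gene name. Unchanged peaks were given to members by an overlap of at least 1 base with the gene extended by 1 kb, in RefSeq genes of GRCm38.p6, which matched all 39 members. At the TSS means centred within 1 kb, by the authors' distance for lower peaks and by RefSeq's promoter table for unchanged ones. That table lacks 7 members: for Tex11, Rnf17, Dnd1 and Dmrt1 the TSS followed from the authors' distances, for Piwil2 only those distances were used, and Tex15 and Spo11 were judged by their gene ends. Of the shares over all protein-coding genes, 14.8% rests on the authors' distances and 31.5% on the promoter table. Peak assignment was checked on 400 genes with planted peaks. The members and lists were chosen with earlier results of these data known. Every member is accounted for, and up to 4 genes of each other list were named, by widest lower peak. The repressor genes E2f6, Mga, Max, Pcgf6 and Rnf2 were named outside this rule. The CpG ratio with its limit of 0.6 and the GC skew were added after the data were seen. With no value per library there was no test over samples. Counts and intervals were made with pandas 2.3.3 and SciPy 1.17.1 in Python 3.11.15, and figures with matplotlib 3.10.9.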

Additional observations from a re-analysis of the deposited data

How the results depend on the processing

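Alternatives covered the window (500 base pairs to 50 kb), the overlap rule, peaks of the minimum width, members with a role in 2 groups and members on the X chromosome. Of 85 values recomputed, 83 stayed within 1.5 times the count reported or within its interval. This rule is loose where intervals are wide. Germ cell identity genes with a lower TSS peak numbered 3 of 11 within 500 base pairs, 4 within 1 kb and 6 within 3 kb. Within 3 kb, 5 of 14 meiosis and 7 of 14 piRNA genes had one, as within 1 kb. With lower peaks restricted to 5 kb from the TSS, meiosis genes with one numbered 5 and not 8, since the peaks of Sycp2, Hormad2 and Tex11 lie farther off. With the longer letters GGCGGGA or TCCCGCC, 5 of 32 members and not 11 had an E2F match, since the string is stricter. No paired analysis was possible because the lists give no value per library, and for the same reason no replicate could be left out. Depth is unknown, so an unchanged peak may be one where a change could not be detected. Lists of 11 to 14 genes leave wide intervals.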

Other observations

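At 5 members the unchanged TSS peak also overlapped another gene of the RefSeq table, so that it cannot be assigned to one of the genes. These were Stag3 (with Gpc2), Spo11 (Gm52538), Tex11 (Gm9078), Mov10l1 (Mlc1) and Tdrkh (1700040D17Rik). The same count for lower TSS peaks was 0 of 16 members. Lower peaks were given to genes by the authors' annotation and unchanged peaks by overlap, so these counts are not alike. Of the 27 lower peaks that carry a member's name, 4 were annotated inside another gene, at Sycp2 (in Phactr3), Stra8 (in Slc23a4), Piwil1 (in Rimbp2) and Nanos2 (in Nova2).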
